A study of Mus musculus with 19 samples.

Results

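The response of the mouse brain to poly(PR) was set against its response to poly(GR), as the difference of effects: the log2 fold change of poly(PR) mice over their own controls, minus that of poly(GR) mice over theirs. All 19 libraries of the series enter this comparison, 11 from poly(PR) mice and their controls and 8 from poly(GR) mice and theirs. RNA was sequenced from homogenates of hippocampus and cortex of C57BL/6 mice aged 3 months. On the day of birth each pup had received 2 μl per cerebral ventricle of an AAV1 vector, an adeno-associated virus. The vector gave GFP alone in the controls, GFP-(PR)50 in 7 mice (PR50; 4 female, 3 male) or GFP-(GR)100 in 4 mice (GR100; 3 female, 1 male). Controls were matched by harvest, 4 to the poly(PR) mice (PR-control; 3 female, 1 male) and 4 to the poly(GR) mice (GR-control; 2 female, 2 male). All 4 groups therefore carried virus and GFP, and repeat length (50 against 100 units) differs along with repeat sequence. The labels do not name the promoter of the vector. No control library is shared between the cohorts, and harvest and repeat protein cannot be told apart except through each cohort's own controls.

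Poly(PR) and poly(GR) are arginine-rich dipeptide repeat proteins made from the expanded repeat of C9orf72, the commonest known genetic cause of amyotrophic lateral sclerosis and frontotemporal dementia. Both bind RNA and proteins with disordered regions and gather in the nucleolus in many cell systems. The series title places the study in a question about heterochromatin, HP1α and double-stranded RNA. A gene can follow both proteins, as injury genes of glia often do, or one of them, and the difference of effects is the test of the latter.

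Gene reads ranged from 26934239 to 47648711 per library. The sex-linked genes Xist (523 CPM, counts scaled to library size with TMM factors, or more in female mice, at most 3.08 CPM in male mice) and Ddx3y (at most 0.599 CPM in female mice, 45.5 CPM or more in male mice) matched the sex on every label. Xist, on the X chromosome, fell with poly(GR) (-0.65 ± 0.09) in the fit with sex as a covariate and had -0.16 ± 0.19 with poly(PR). The poly(GR) value rests on 3 female GR100 and 2 female GR-control libraries. It ran from -0.79 to -0.15 in alternative fits and was -0.34 with the ribosomal RNA share, given below, as a covariate. Markers of excitatory neurons were present in every library, as were markers of striatal projection neurons, whose 18 listed genes summed to between 2279 and 3838 CPM although the label names hippocampus and cortex. The libraries were not alike in ribosomal RNA: rRNA made up 40.0% to 46.1% of the counts assigned to repeats in PR-control and 34.4% to 36.1% in 6 of the PR50 libraries, with PR50 replicate 6 at 43.3%. In GR-control the 2 female libraries stood at 59.5% and 49.1% and the 2 male libraries at 22.9% and 25.4%, against 22.1% to 29.2% in GR100. These shares move with both comparisons, and their part in the results below was not tested beyond the fits named beside them.

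**Figure D1:**
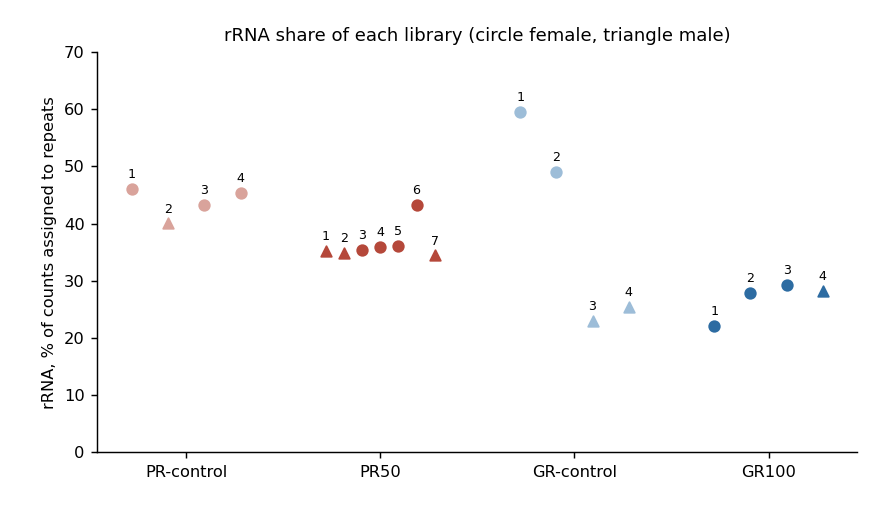
Share of the counts assigned to repeats that fell on rRNA, in percent, for each library by group; circles are female mice, triangles male, and numbers are replicates. PR50 replicate 6, at 43.3%, sits among the PR-control libraries, and the 2 female GR-control libraries sit above all others.

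No gene passed an adjusted p of 0.05 for the difference of effects, of 19863 tested (0%; edgeR quasi-likelihood test with sex as a covariate, Benjamini-Hochberg adjustment). The smallest adjusted p was 0.0573, for Tcf24. At an unadjusted p under 0.05 there were 1066 genes (5.37%), 640 with the larger effect in poly(PR) and 426 with the larger effect in poly(GR). DESeq2 called 4 genes, among them Tcf24, Snhg1 and Zc3hav1. Within the cohorts, 11 of 19156 genes changed with poly(PR) (0.0574%; 7 higher, 0.0365%, and 4 lower, 0.0209%) and 32 of 18511 with poly(GR) (0.173%; 15 higher, 0.081%, and 17 lower, 0.0918%). These counts rest on single libraries. The poly(PR) count was 617 without PR50 replicate 6, 1 or 2 without PR50 replicate 1, 2, 5 or 7, and 0 without PR50 replicate 3 or 4 or any of the PR-control libraries. The poly(GR) count was 0 without GR-control replicate 1, 18 and 20 without GR-control replicates 2 and 4, and 111 without GR100 replicate 4.

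In both directions the cohorts shared more than they opposed. Across the 18203 genes tested in both, 597 had an unadjusted p under 0.05 in each cohort, and 583 of these had the same sign (317 higher, 266 lower) against 14 with opposite signs. Of the genes higher with poly(PR) at that threshold, 22.8% were also higher with poly(GR), compared with 6.28% of all genes. Of those higher with poly(GR), 27.7% were higher with poly(PR), compared with 7.65% of all genes. For lower genes the shares were 19.1% of the poly(PR) genes and 27.8% of the poly(GR) genes, compared with 5.25% and 7.65% of all genes. Over all genes, 61.3% had the same sign, with a Pearson r of 0.32 and a Spearman rho of 0.31 between the log2 fold changes; genes within a library are not independent, so no p is given. Groups did not overlap in either cohort for 42 genes that were higher in both (0.231%), 20 that were lower in both (0.11%) and 2 that were higher with poly(PR) and lower with poly(GR) (0.011%). No gene (0%) showed the reverse.

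**Figure D2:**
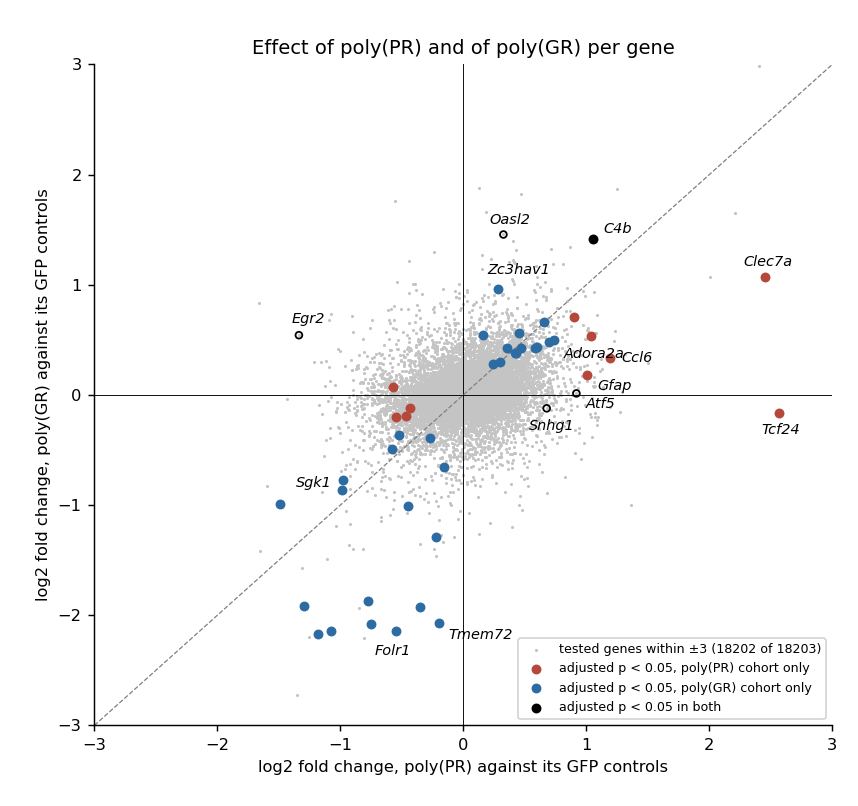
Log2 fold change of each gene against its cohort's GFP controls, poly(PR) on the horizontal axis and poly(GR) on the vertical axis, for 18202 of the 18203 genes tested in both (1 lies beyond the axes); filled points passed an adjusted p of 0.05 in a cohort, open circles mark named genes that did not, and the dashed line is equality. C4b is the gene called in both; Tcf24 lies far to the right near 0 for poly(GR), Oasl2 lies above the line of equality, and Egr2 lies left of 0 for poly(PR) and above 0 for poly(GR).

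Of the genes called in a cohort, 1 was called in both, which is 9.09% of the poly(PR) calls and 3.12% of the poly(GR) calls. All 32 genes called with poly(GR) had the same sign with poly(PR), 18 of them at an unadjusted p under 0.05. Among the 11 called with poly(PR), 9 had the same sign with poly(GR), 7 at an unadjusted p under 0.05. The difference of effects reached an unadjusted p under 0.05 for 9 of the poly(PR) calls and 1 of the poly(GR) calls, but the difference contains the contrast by which these genes were chosen, so the counts describe and do not test.

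Tcf24 (chr1:9960163-9967932, GRCm38, minus strand), a basic helix-loop-helix transcription factor gene, had the most distinct difference. Its level was 0.481, 0.197, 0.448 and 0.425 CPM in PR-control and rose to between 1.31 and 2.85 CPM (median 2.23) in PR50. In the other cohort it stood at 0.361, 0.313, 0.325 and 0.259 CPM in GR-control and 0.246, 0.24, 0.211 and 0.371 CPM in GR100. Every PR50 library was thus above every other library of the series, and the poly(GR) groups overlapped. Over all genes tested, groups did not overlap for 1.39% higher and 1.32% lower with poly(PR), and for 2.29% higher and 2.41% lower with poly(GR). The log2 fold change was 2.57 ± 0.27 (SE) with poly(PR) (adjusted p = 0.00996, edgeR) and -0.16 with poly(GR), a difference of 2.78 ± 0.42. The gene is expressed at a low level and shares 14.8% of its exonic bases with other annotated genes, whose reads the unstranded counts cannot separate.

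Snhg1 (chr19:8723475-8726443, plus strand) is a noncoding host gene whose introns carry small nucleolar RNAs. It measured 9.72, 8.13, 8.21 and 10.4 CPM in PR-control and 11.8 to 16.5 CPM (median 14.4) in PR50. In GR-control it was at 7.25, 7.17, 7.69 and 7.75 CPM, and in GR100 at 7.78, 6.57, 5.9 and 6.84 CPM. PR50 did not overlap its controls, while the poly(GR) groups did, and the difference was 0.82 ± 0.15 on the log2 scale (adjusted p = 0.168, edgeR). Shared exonic bases made up 20.9% of this gene. Of the 13 snoRNA host genes tested, 6 were higher with poly(PR) at an unadjusted p under 0.05 and 1 with poly(GR) (7.64% and 6.23% of all genes). At that threshold for the difference, 7 of the 13 had a larger value with poly(PR) (3.22% of all genes did). Their medians were 0.36 and 0.02. Snhg15 had 1.11 ± 0.22 with poly(PR) and 0.22 ± 0.17 with poly(GR), and Snhg17 had 0.37 ± 0.08 and 0.0010 ± 0.087. With the rRNA share as a covariate in each cohort's own fit, the median of the list was -0.01 with poly(PR) and 0.01 with poly(GR). The fit of all 19 libraries, which applies the covariate alike to both cohorts, gave a median difference of 0.35.

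Zc3hav1 (chr6:38305286-38354603, minus strand), which encodes the zinc-finger antiviral protein ZAP, a binder of CpG-rich viral RNA, had its larger value with poly(GR). PR-control had 7.04, 7.27, 7.03 and 6.76 CPM and PR50 7.39 to 9.75 CPM (median 8.48). GR-control had 5.95, 5.61, 5.48 and 6.22 CPM, and the level rose in GR100 to 13, 9.23, 10.4 and 11.9 CPM. The groups did not overlap in either cohort, so both had higher values, by 0.29 ± 0.09 with poly(PR) (adjusted p = 0.227) and by 0.96 ± 0.12 with poly(GR) (adjusted p = 0.00591, edgeR). The difference was -0.67 ± 0.14 (adjusted p = 0.561), and it lay between -0.75 and -0.52 in the 34 alternatives tried. Samd9l, an interferon-inducible antiviral gene, had 0.06 ± 0.11 with poly(PR) and 0.67 ± 0.13 with poly(GR). Its difference was -0.61 with all libraries and -0.34 in the 14 libraries whose deposited gene tables have 4 columns (5 have 2 columns).

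**Figure D3:**
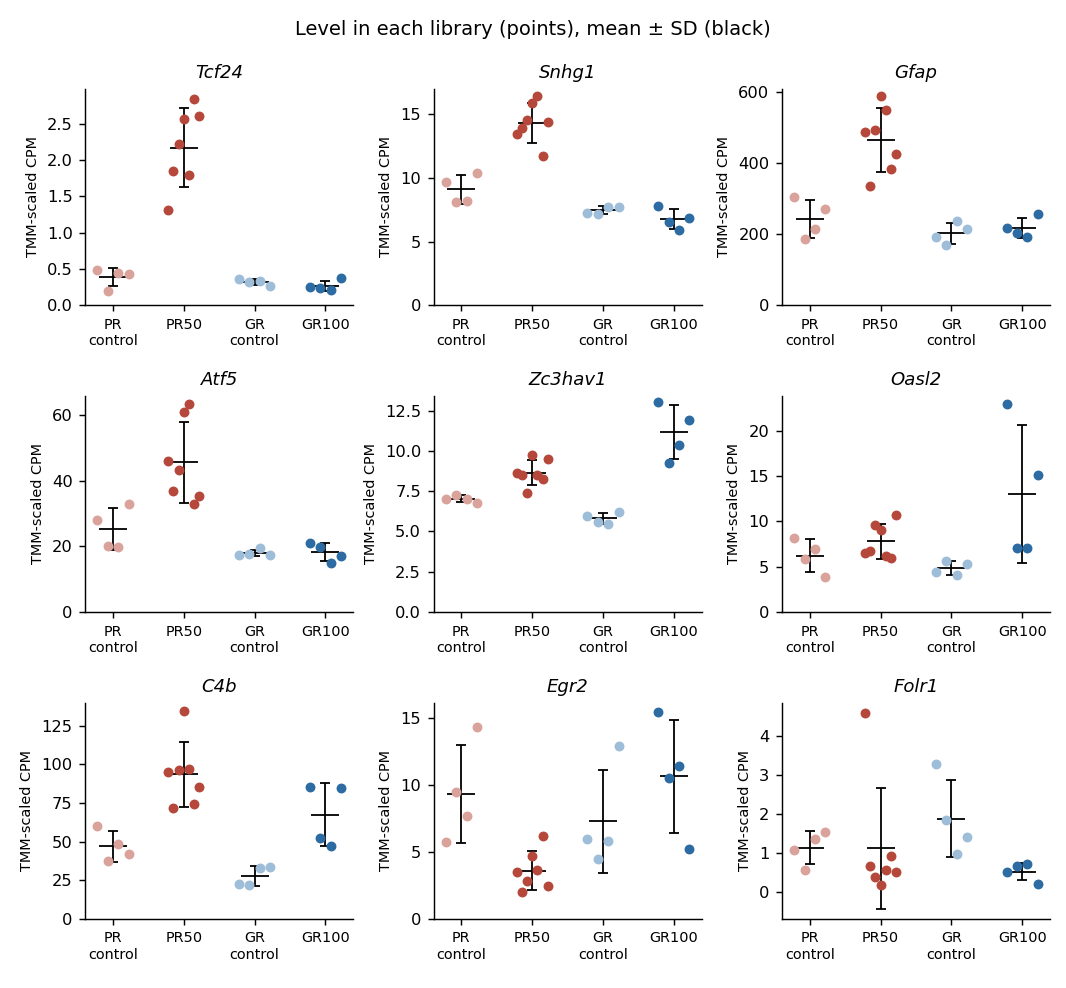
TMM-scaled CPM of 9 genes in each library (points) with the mean and SD of each group (black); each panel has its own linear axis. Tcf24, Snhg1 and Gfap are higher in PR50 than in PR-control without overlap, Zc3hav1 and C4b are higher in both treated groups, and Folr1 is lower in GR100 without overlap while 1 PR50 library stands at 4.61 CPM.

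Among the genes next in rank with the larger value for poly(PR) were Hpgd, which inactivates prostaglandins (0.45 ± 0.10 with poly(PR), -0.21 ± 0.11 with poly(GR)), Aen, a p53-induced nuclease (0.37 ± 0.08 and -0.04 ± 0.06), and Cgref1 (0.38 ± 0.08 and -0.01 ± 0.06). Cyb5r1, Fcrls, Tbxas1 and Chchd1 had a positive value with poly(PR) and a negative one with poly(GR). On the other side, Adra1d, an α1 adrenergic receptor gene, was at 16.5, 22, 21.2 and 18.6 CPM in PR-control and 8.70 to 15.4 CPM (median 11.9) in PR50. It was at 20.5, 21.8, 23.4 and 18.6 CPM in GR-control and 21.6, 24.3, 21.8 and 18.3 CPM in GR100. The 2 poly(PR) groups were apart and the 2 poly(GR) groups were not, with a difference of -0.78 ± 0.19. Myadm, Pank1, Clstn1, Exd2 and Nectin1 had differences from -0.53 to -0.29, each with a negative value for poly(PR) and a positive one for poly(GR).

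Complement C4b (chr17:34728380-34743882, minus strand), whose product tags material for removal by phagocytes, rose in both. It went from 60.2, 37.2, 48.7 and 41.7 CPM to between 71.9 and 134 CPM (median 94.8) with poly(PR), and from 22.4, 22.2, 33.0 and 33.8 CPM to 85.3, 52.3, 47.0 and 84.3 CPM with poly(GR). Neither pair of groups overlapped, and the log2 fold changes were 1.05 ± 0.16 (adjusted p = 0.0429) and 1.42 ± 0.15 (adjusted p = 0.00591, edgeR), with a difference of -0.30 ± 0.30. C4b has a near-identical neighbour, C4a, and the 2 cannot be cleanly told apart in counts of this kind.

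Gfap (chr11:102887336-102900912, minus strand), the intermediate filament of reactive astrocytes, rose with poly(PR). Its level was 305, 185, 216 and 270 CPM in PR-control and 336 to 589 CPM (median 487) in PR50, compared with 192, 168, 237 and 215 CPM in GR-control and 216, 203, 192 and 256 CPM in GR100. The poly(PR) groups were apart and the poly(GR) groups overlapped. The log2 fold changes were 1.01 ± 0.15 (adjusted p = 0.0429, edgeR) and 0.18 ± 0.06 (adjusted p = 0.327), a difference of 0.87 ± 0.23 with an adjusted p of 0.786. Of the 11 reactive astrocyte genes tested, 6 were higher with poly(PR) and 3 with poly(GR) at an unadjusted p under 0.05 (7.64% and 6.23% of all genes). Values below 0 were seen for 3 and 5 of them, and the medians were 0.31 and 0.18. Aspg had 0.74 ± 0.27 with poly(PR) and 0.50 ± 0.17 with poly(GR), and the chemokine Cxcl10 had 1.04 ± 0.35 and -0.20 ± 0.34.

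Of the 22 genes listed for disease-associated microglia, 17 were higher with poly(PR) at an unadjusted p under 0.05 and 10 with poly(GR) (background 7.64% and 6.23% of all genes tested). Their medians were 0.34 and 0.25. Clec7a, a receptor for fungal β-glucan that marks activated microglia, rose from 1.06, 0.329, 1.07 and 0.541 CPM to between 1.79 and 5.19 CPM (median 4.06) with poly(PR). With poly(GR) it went from 0.397, 0.495, 0.498 and 0.518 CPM to 1.15, 0.63, 0.553 and 1.34 CPM. Both treated groups were above their controls without overlap, with log2 fold changes of 2.45 ± 0.32 (adjusted p = 0.0429, edgeR) and 1.07 ± 0.29 (adjusted p = 0.208). Lag3, an inhibitory immune receptor that is also found on microglia, rose with poly(PR) (1.04 ± 0.15) and had 0.53 ± 0.16 with poly(GR). Since RNA came from whole tissue, more cells of a type and more RNA per cell cannot be told apart. Nor can the cell type that made the RNA of a listed gene.

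Some microglial genes differed more. Cd52, a surface glycoprotein of leukocytes, stood at 2.44, 1.38, 2.21 and 1.66 CPM in PR-control and 2.47 to 5.11 CPM (median 4.09) in PR50, against 1.95, 1.80, 1.04 and 1.53 CPM in GR-control and 1.97, 1.59, 1.5 and 1.65 CPM in GR100. PR50 lay above its controls and the poly(GR) groups overlapped, a difference of 1.09 ± 0.29. Ccl6, a chemokine, rose with poly(PR) from 1.68, 1.42, 2.28 and 2.28 CPM to between 2.97 and 5.40 CPM (median 4.00), a log2 fold change of 1.2 ± 0.17. The GR-control libraries had 1.37, 0.965, 1.58 and 1.73 CPM of Ccl6, those of GR100 had 1.99, 1.26, 0.975 and 2.12 CPM, and these groups overlapped. Ccl12 (0.96 ± 0.34 and -0.58 ± 0.32) and Ccl9 (0.58 ± 0.22 and -0.27 ± 0.20) also had unlike values. Of the 10 chemokine genes tested in both cohorts, 5 were higher with poly(PR) and 0 with poly(GR) at an unadjusted p under 0.05 (7.64% and 6.23% of all genes). Another 4 of the 14 listed were too low to test in the poly(GR) cohort. At an unadjusted p under 0.05 for the difference, 5 of the 10 had the larger value with poly(PR) and 1 with poly(GR) (3.22% and 2.14% of all genes). The medians of the 10 were 0.31 with poly(PR) and -0.01 with poly(GR). With the rRNA share as a covariate in the cohort fits, the poly(PR) median was 0.10 and Ccl6 had 0.61 with poly(PR).

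Fcrls, a marker of resting microglia, had opposite signs. It was at 28.8, 20.2, 22.9 and 24.9 CPM in PR-control and 22.9 to 30.0 CPM (median 27.5) in PR50, and at 27.4, 26.1, 25.6 and 24.2 CPM in GR-control and 27.3, 21.6, 21.6 and 17.8 CPM in GR100. Both pairs of groups overlapped, and the difference was 0.49 ± 0.11. Tmem119, another such marker, had the opposite pattern (-0.20 ± 0.07 with poly(PR), 0.09 ± 0.06 with poly(GR)), and the 14 resting markers had medians of 0.08 and 0.07.

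Interferon-stimulated genes, most of which encode antiviral proteins, leaned to poly(GR). Of 32 tested, 14 were higher with poly(GR) and 5 with poly(PR) at an unadjusted p under 0.05 (6.23% and 7.64% of all genes), with medians of 0.43 and 0.21. At that threshold 5 had a difference, all with the larger value in poly(GR) (2.14% of all genes). Zc3hav1 was the only one called in a cohort. Oasl2, an oligoadenylate synthetase-like gene, was at 8.17, 5.86, 6.93 and 3.90 CPM in PR-control and 5.91 to 10.7 CPM (median 6.77) in PR50. It was at 4.44, 5.66, 4.05 and 5.30 CPM in GR-control and 22.9, 7.05, 7.09 and 15.1 CPM in GR100. GR100 lay above its controls without overlap. Its replicates 1 and 4 were the highest of all 19 libraries, and replicates 2 and 3 were within the PR50 range. Those 2 high libraries are the ones of GR100 with 2-column gene tables. In a fit of the 4-column tables alone, which leaves GR100 replicates 2 and 3 against 1 control, the Oasl2 difference was 0.0049 ± 0.46 (-1.12 ± 0.44 with all libraries), the median of the list with poly(GR) was -0.10, and its median difference was 0.27 against -0.22 with all libraries. Without GR100 replicate 1 the median difference was -0.04. The part of table layout in these values was not tested beyond these fits. With the rRNA share as a covariate the poly(PR) median of the list was -0.07. The medians of class I antigen presentation were 0.31 with poly(PR) and 0.42 with poly(GR), 5 and 9 of 13 genes being higher at an unadjusted p under 0.05, with Tap1 at 0.69 ± 0.18 and 0.70 ± 0.16. The poly(PR) median of these genes was -0.11 with the rRNA share as a covariate, and the poly(GR) median was 0.22 in 4-column tables.

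**Figure D4:**
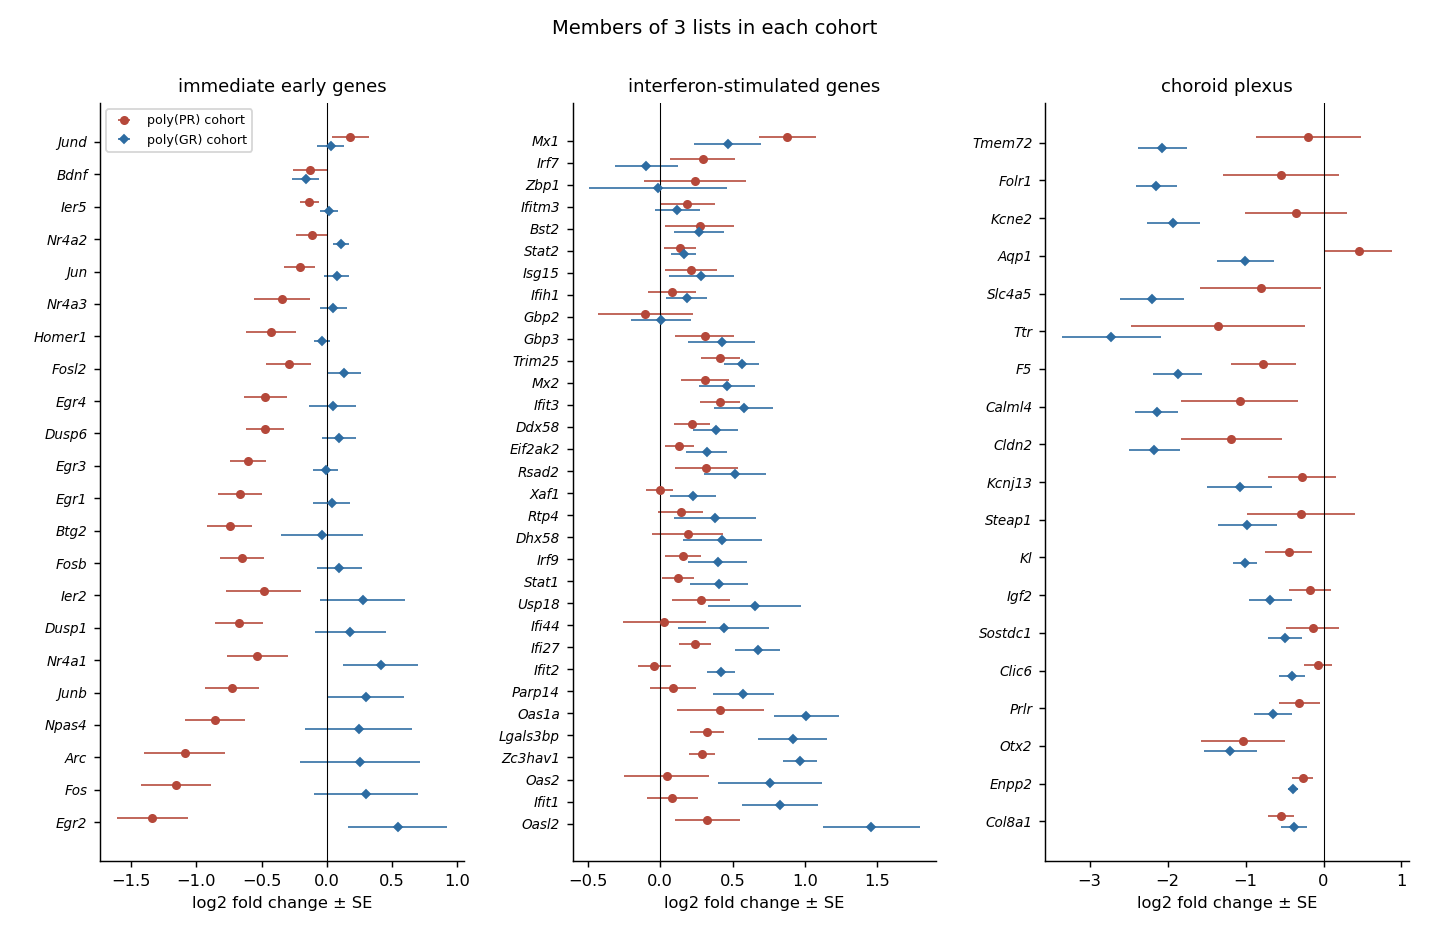
Log2 fold change with its SE for the tested members of 3 lists with poly(PR) (circles) and with poly(GR) (diamonds), ordered by the gap between the cohorts. Immediate early genes other than Jund lie left of 0 with poly(PR), most interferon-stimulated genes (not Mx1, for example) lie further right with poly(GR), and choroid plexus genes other than Col8a1 lie further left with poly(GR).

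Genes of double-stranded RNA sensing and editing had medians of -0.02 with poly(PR) and 0.05 with poly(GR). Of the 20 tested, 5 were higher and 1 lower with poly(GR) at an unadjusted p under 0.05, and 2 were higher and 2 lower with poly(PR), compared with 6.23% of all genes higher with poly(GR) and 7.64% with poly(PR). The poly(PR) median was 0.06 with the rRNA share as a covariate, and Zc3hav1, which is also on this list, was the 1 called. Adar, which edits adenosine in double-stranded RNA, had -0.13 ± 0.09 with poly(PR) and 0.01 ± 0.05 with poly(GR), Ifih1 (the sensor MDA5) 0.08 ± 0.17 and 0.18 ± 0.14, and Eif2ak2 (the kinase PKR) 0.13 ± 0.10 and 0.32 ± 0.14. For the HP1 genes, Cbx5 (HP1α) had -0.21 ± 0.15 and -0.08 ± 0.06, Cbx1 (HP1β) -0.11 ± 0.08 and -0.06 ± 0.05, and Cbx3 (HP1γ) -0.23 ± 0.11 and -0.10 ± 0.07. The 26 heterochromatin genes had medians of 0.02 in each cohort, and the 16 genes of the nuclear lamina 0.03 and 0.01, compared with 0.00 for all genes. Of the lamins, Lmna had -0.03 ± 0.09 and -0.02 ± 0.06, and Lmnb1 0.04 ± 0.10 and -0.01 ± 0.08. C9orf72 itself had -0.13 ± 0.10 and -0.10 ± 0.06. Hist1h1c, a linker histone gene, rose with poly(PR) from 24.7, 21.9, 18.0 and 22.9 CPM to between 34.1 and 52.1 CPM (median 38.7). With poly(GR) it went from 16.4, 15.6, 21.0 and 19.7 CPM to 35.1, 29.2, 18.5 and 30.1 CPM, where 1 library lay in the control range, and the log2 fold changes were 0.90 ± 0.12 and 0.71 ± 0.15.

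Immediate early genes, transcribed soon after neuronal activity, had the lowest median difference of the 47 lists, -0.60, from medians of -0.51 with poly(PR) and 0.09 with poly(GR). With poly(PR), 14 of 22 were lower at an unadjusted p under 0.05 (7.31% of all genes were), with poly(GR) 0 were, and 7 had a difference at that threshold (2.14% of all genes). Not 1 of the 22 passed the adjusted threshold in either cohort. Egr2, a zinc-finger transcription factor, was at 5.77, 9.51, 7.69 and 14.4 CPM in PR-control and 2.01 to 6.17 CPM (median 3.47) in PR50. It was at 5.95, 4.46, 5.79 and 12.9 CPM in GR-control and 15.5, 10.5, 11.4 and 5.25 CPM in GR100. PR50 lay mostly below its controls, with 1 library inside their range, GR100 lay both above and within its own, and the difference was -1.77 ± 0.52. Egr1 (-0.67 ± 0.17 and 0.04 ± 0.15) and Egr3 (-0.60 ± 0.14 and -0.01 ± 0.10) followed. With PR50 replicate 6 and GR-control replicates 1 and 2 left out, the median difference of the list was -0.29. That fit keeps no female GR-control library, so sex and treatment are less balanced in it. The poly(GR) median changed sign in 4 of 22 alternatives: -0.45 with a striatal score and -0.30 with the rRNA share as a covariate, and -0.04 without GR-control replicate 1 or replicate 2. The poly(PR) median was -0.25 with the rRNA share, so the cohorts were alike in these separate fits. In the fit of all 19 libraries, which applies that covariate alike to both cohorts, the median difference was -0.52.

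Promoters were read to show which of these genes carry short binding motifs near their start. RefSeq promoters (GRCm38.p6; 250 bases before to 50 after the start) covered 27025 genes, and 6 motifs were searched on both strands in 7 lists, each gene counted once if any of its starts held the motif. The interferon-stimulated response element core, GAAA and GAAA 2 bases apart, was in 13 of 22 interferon-stimulated genes, 4 of 18 immediate early genes, 6 of 35 cytosolic ribosomal protein genes and 3.99% of all genes. The CArG box was in 1 of 18 immediate early genes, Egr2, and 1.81% of all genes. The cyclic AMP element TGACGTCA was in 2 of 18 immediate early genes, 2 of 12 snoRNA host genes and 4 of 35 ribosomal protein genes (2.03% of all), and TTGCATCA in 3 of 21 stress response genes (1.03%). The amino acid response element was in 4 of 21 stress response genes and 3 of 22 interferon-stimulated genes (3.28%). The glucocorticoid half-site pair ACANNNTGT was in 4 of 18 glucocorticoid-responsive genes and in 4 of 18 immediate early genes (7.90%). Zc3hav1 and Oasl2 were not among the 13 interferon-stimulated genes with the interferon motif. Only 22 of the 32 listed had a promoter here, and either gene may lack one. These stretches are shown because they hold a motif; motif bases are in capitals, all are written 5′ to 3′ on the gene's strand, and where the second strand matched the capitals show the complement.
Egr2 (chr10:67537469-67537528, plus strand, CArG box): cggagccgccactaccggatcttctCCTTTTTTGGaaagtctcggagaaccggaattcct
Ifit1 (chr19:34640760-34640838, plus strand): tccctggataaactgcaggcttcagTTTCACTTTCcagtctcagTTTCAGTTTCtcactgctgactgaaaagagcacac
Ifit3 (chr19:34583348-34583441, plus strand): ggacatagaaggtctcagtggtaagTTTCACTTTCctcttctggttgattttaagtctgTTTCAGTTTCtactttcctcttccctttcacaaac
Oas1a (chr5:120907526-120907570, minus strand): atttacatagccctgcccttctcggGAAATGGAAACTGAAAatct
In Ifit1 and Ifit3 the motif occurs 2 times on the second strand, and in Oas1a 2 overlapping times on the gene's own strand. These are matches of letters only. Ifit1 had 0.08 ± 0.17 with poly(PR) and 0.83 ± 0.26 with poly(GR), Ifit3 0.41 ± 0.14 and 0.58 ± 0.20, and Oas1a 0.41 ± 0.30 and 1.01 ± 0.23.

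Genes of the unfolded protein response and of the stress pathway that leads through the factor ATF4 moved both ways. Those given here are the 3 with the smallest p for the difference. Atf5, a transcription factor translated under stress, was at 27.9, 20.2, 19.7 and 32.9 CPM in PR-control and 32.7 to 63.4 CPM (median 43.3) in PR50, and at 17.4, 17.7, 19.3 and 17.3 CPM in GR-control and 21.1, 19.6, 15.0 and 17.1 CPM in GR100. Only the lowest PR50 library reached the control range, and the difference was 0.94 ± 0.25. Ddit3, which encodes the stress factor CHOP, was at 22.2, 16.6, 16.1 and 24.7 CPM in PR-control and 24.6 to 42.6 CPM (median 29.6) in PR50, with 17.2, 16.7, 16.9 and 14.7 CPM in GR-control and 18.3, 19.4, 16.2 and 15.0 CPM in GR100. Here too the PR50 and control ranges met at their edges, with a difference of 0.72 ± 0.20. Atf4 had 0.23 ± 0.10 and -0.13 ± 0.06. Over the 22 genes of this list 6 were higher and 7 lower with poly(PR) at an unadjusted p under 0.05 (7.64% and 7.31% of all genes). At that threshold for the difference, 5 had the larger value with poly(PR) and 2 with poly(GR) (3.22% and 2.14% of all genes). The medians of the list were -0.07 and -0.02.

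Genes of translation and respiration had values that were small and of opposite sign. All 46 cytosolic ribosomal protein genes tested had a value above 0 with poly(PR), and 43 of them a value below 0 with poly(GR), with medians of 0.22 and -0.06. None of them passed an unadjusted p of 0.05 with poly(PR), 8 did with poly(GR), all lower (5.25% of all genes were), and 1 did for the difference. Their summed level ranged from 8529 to 13644 CPM in PR-control and from 9179 to 15427 CPM in PR50, so the groups overlapped. With the rRNA share as a covariate the poly(PR) median was -0.09, so the signs were no longer opposite. Mitochondrial ribosomal protein genes (medians 0.13 and -0.03), nuclear genes of oxidative phosphorylation (0.09 and -0.06) and the mitochondrial genome (0.09 and -0.13) had the same pair of signs. With the rRNA share as a covariate their poly(PR) medians were -0.0079, -0.11 and -0.14, which also ends the opposite signs. In the cohort fits with that covariate, the poly(GR) medians were -0.08 for cytosolic and -0.07 for mitochondrial ribosomal genes. They were -0.11 for oxidative phosphorylation and -0.09 for the mitochondrial genome, so little of the contrast was left in these fits. The fit of all 19 libraries, which applies the covariate alike to both cohorts, gave other median differences. They were 0.34 for cytosolic ribosomal genes (0.31 without it) and 0.21 for mitochondrial ribosomal genes (0.20). For oxidative phosphorylation they were 0.21 (0.18) and for the mitochondrial genome 0.24 (0.22). At the level of genes, 8 of the 33 mitochondrial ribosomal genes had a larger value with poly(PR) at an unadjusted p under 0.05 for the difference (3.22% of all genes did). Mrps18a had 0.49 ± 0.15 and -0.10 ± 0.06, and mt-Nd3, a complex I subunit of the mitochondrial genome, 0.56 ± 0.24 and -0.46 ± 0.20. Chchd1, a mitochondrial ribosome protein, was at 30.3, 24.4, 26.9 and 33.0 CPM in PR-control and 28.6 to 45.6 CPM (median 33.4) in PR50, and at 23.6, 26.9, 23.2 and 23.4 CPM in GR-control and 19.5, 22.2, 21.5 and 20.7 CPM in GR100. GR100 lay below its controls and the poly(PR) groups overlapped.

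**Figure D5:**
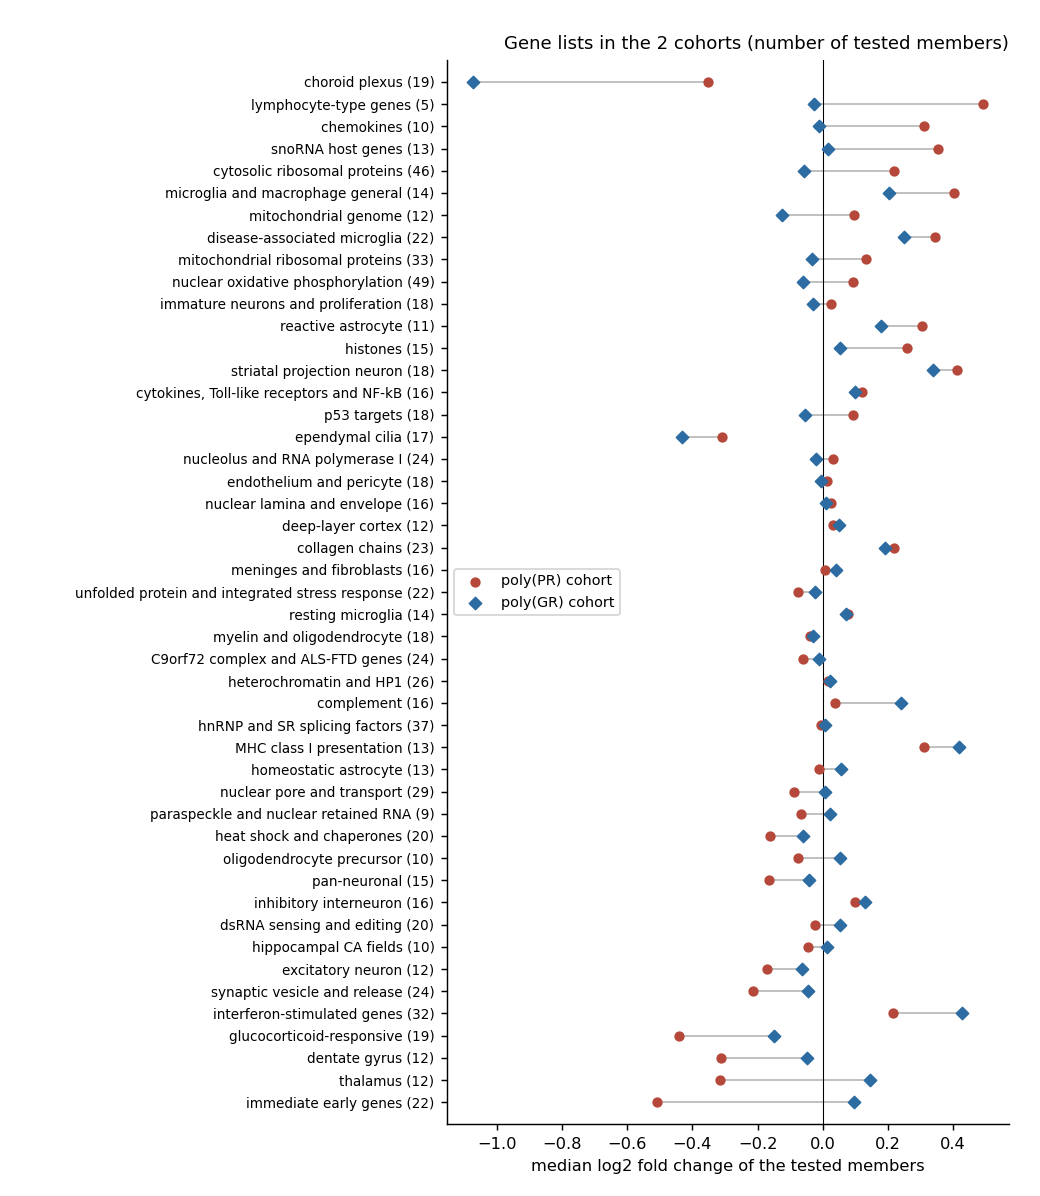
Median log2 fold change of the tested members of each of the 47 gene lists with poly(PR) (circles) and with poly(GR) (diamonds), ordered by the median difference of effects, with the number of members tested in parentheses. Immediate early genes are at the bottom and choroid plexus genes at the top, while striatal, glucocorticoid-responsive and microglial lists lie on one side of 0 in both cohorts.

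Choroid plexus genes mark the epithelium that makes cerebrospinal fluid. All 19 were lower with poly(GR) at an unadjusted p under 0.05 (5.25% of all genes were) and 1 was with poly(PR), with medians of -1.07 and -0.35, yet none passed that threshold for the difference. Folr1, a folate receptor of this epithelium, fell with poly(GR) from 3.28, 1.85, 0.975 and 1.41 CPM to 0.493, 0.66, 0.711 and 0.206 CPM (log2 fold change -2.15 ± 0.26, adjusted p = 0.00591, edgeR). In PR-control it was at 1.06, 0.559, 1.34 and 1.55 CPM and in PR50 at 0.181 to 4.61 CPM (median 0.565), with PR50 replicate 1 far above the rest. Ttr, the thyroid hormone carrier, was at 119, 41.7, 95 and 160 CPM in PR-control and 1.01 to 518 CPM (median 38.4) in PR50, against 322, 215, 104 and 154 CPM in GR-control and 38.6, 108, 90.8 and 1.15 CPM in GR100. The summed level of the list ran from 401 to 712 CPM in GR-control and from 228 to 362 CPM in GR100, and from 283 to 367 CPM in PR-control and from 152 to 825 CPM in PR50. Tmem72, Kcne2, F5, Cldn2, Kl, Calml4 and Enpp2 also fell with poly(GR), with log2 fold changes from -2.17 to -0.39, against -1.18 to -0.19 with poly(PR). Mfrp, which is not on the list, fell as well (-2.08 ± 0.28; -0.75 ± 0.63 with poly(PR)). The median difference of the list was 0.76 with all libraries, 0.51 without PR50 replicate 1 and 0.10 in 4-column tables. It was 0.11 without PR50 replicate 6 and GR-control replicates 1 and 2, the only female GR-control libraries. The poly(PR) median was 0.50 with the rRNA share as a covariate. The amount of choroid plexus in each homogenate was not measured, and its part was not tested. Ependymal cilia genes had medians of -0.31 and -0.43, with 5 and 8 of 17 lower at an unadjusted p under 0.05 (7.31% and 5.25% of all genes). Their poly(PR) median was -0.027 with the rRNA share and 0.27 with the striatal score as a covariate, and their poly(GR) median was 0.0017 in 4-column tables and 0.24 with the choroid plexus score.

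All 18 striatal projection neuron genes had a positive value in each cohort, 14 with poly(PR) and 17 with poly(GR) at an unadjusted p under 0.05. Of all genes, 7.64% and 6.23% were higher at that threshold. The medians of the list were 0.41 and 0.34. Adora2a, an adenosine receptor, rose with poly(GR) from 56.4, 63.7, 73.7 and 65.1 CPM to 87.4, 94.7, 86.1 and 90.4 CPM (0.50 ± 0.07, adjusted p = 0.0105, edgeR). With poly(PR) it went from 63.5, 52.7, 50.4 and 55.5 CPM to between 70.1 and 129 CPM (median 81.8; 0.74 ± 0.13, adjusted p = 0.0827). Neither pair of groups overlapped, and the difference was 0.28 ± 0.18. Penk, the enkephalin precursor, had 0.66 ± 0.11 and 0.43 ± 0.09. Rxrg, Syndig1l, Rgs9 and Drd1 rose with poly(GR) by 0.28 to 0.43 and had 0.24 to 0.60 with poly(PR). The amount of striatum in each homogenate was not measured, and its part was not tested. With a striatal score as a covariate no gene was called in either cohort. That score is a mean over these same striatal genes. Their summed level was 2531 to 3838 CPM in PR50 against 2279 to 2348 CPM in PR-control. It was 2779 to 3091 CPM in GR100 against 2298 to 2590 CPM in GR-control. The score thus follows treatment in both cohorts, so this fit cannot separate the 2. Excitatory neuron genes were lower for 7 of 12 with poly(PR) and 2 with poly(GR) at an unadjusted p under 0.05, compared with 7.31% and 5.25% of all genes. Of 24 synaptic vesicle genes, 12 were lower with poly(PR) at that threshold (7.31% of all genes). With poly(GR) 1 was lower and 2 were higher. Together these are 12.5% of the list, near the 11.5% of all genes in either direction.

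Glucocorticoid-responsive genes, which follow circulating stress hormone, were lower in both cohorts for 13 and 10 of 19 at an unadjusted p under 0.05 (7.31% and 5.25% of all genes). Their medians were -0.44 and -0.15. Sgk1, a kinase induced by steroid hormones, fell with poly(GR) from 114, 112, 66.9 and 98.2 CPM to 63.6, 53.9, 62.1 and 57.7 CPM (-0.77 ± 0.11, adjusted p = 0.0169, edgeR). With poly(PR) it went from 80.2, 157, 155 and 102 CPM to between 46.6 and 93.2 CPM (median 66.6; -0.98 ± 0.19, adjusted p = 0.093). The poly(GR) groups were apart and the poly(PR) groups overlapped in part, with a difference of -0.23 ± 0.30. Plin4 fell with poly(GR) (-0.99 ± 0.17) and had -1.49 ± 0.35 with poly(PR), and Nfkbia, the inhibitor of NF-kB, fell with poly(GR) (-0.49 ± 0.09) and had -0.58 ± 0.10. Among other genes with the same sign in both cohorts, though not always a like size, the collagen gene Col6a1 rose with poly(GR) (0.66 ± 0.08, and 0.66 ± 0.26 with poly(PR)). So did the paraspeckle RNA Neat1 (0.48 ± 0.06, and 0.70 ± 0.27 with poly(PR)). Rreb1, a zinc-finger factor, rose with poly(GR) (0.54 ± 0.07) and had 0.16 ± 0.16 with poly(PR). Flna, Zkscan2, Asic4 and Serpina9 rose with poly(GR) by 0.38 to 0.56 and had 0.35 to 0.45 with poly(PR). Neurod6, a neuronal transcription factor, fell with poly(GR) (-0.37 ± 0.06; -0.53 ± 0.15 with poly(PR)), as did Fam216b (-1.92 ± 0.33; -1.30 ± 0.61). Dkk3, a secreted Wnt modulator, fell with poly(PR) (-0.55 ± 0.08; -0.20 ± 0.07 with poly(GR)), as did Gfra2, a receptor for neurturin (-0.47 ± 0.06; -0.19 ± 0.08), and Zdhhc22 (-0.43 ± 0.06; -0.12 ± 0.08). Slc14a1 (0.55 ± 0.09 and 0.44 ± 0.08), Itga5 and Gng7 had positive values in both cohorts without passing the adjusted threshold, and Nrn1 (-0.53 ± 0.10 and -0.27 ± 0.05), Npnt, Dio2, Rhou and Plekhf1 had negative ones.

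Opposite signs with an unadjusted p under 0.05 in each cohort were seen for 14 genes, and none of these passed the adjusted threshold in either. In 10 the poly(PR) value was positive; besides Atf4, Fcrls, Tbxas1, Chchd1 and mt-Nd3 these included Dok5, an adaptor of receptor tyrosine kinases (0.18 ± 0.08 and -0.14 ± 0.06), and Itpripl2 (0.28 ± 0.10 and -0.20 ± 0.09). In 4 it was negative, among them Pank1, which starts coenzyme A synthesis (-0.37 ± 0.11 and 0.16 ± 0.07), Ubap2l, an RNA-binding protein of stress granules (-0.19 ± 0.08 and 0.15 ± 0.05), and Slc43a2, an amino acid transporter (-0.18 ± 0.07 and 0.20 ± 0.09). L1cam, a neuronal adhesion molecule (-0.13 ± 0.06 and 0.18 ± 0.06), had the same pair of signs at a larger p.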

How the data were processed

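Gene counts were deposited by the authors as 1 table per library, with no normalization; per the submitters' processing notes the tools were Trimmomatic 0.36 and STAR 2.5.2b, and both mm9 and mm10 appear there with no role. The labels say polyA RNA while the kit named in the protocol prepares total RNA. Tables held 4 columns in 14 libraries and 2 columns in 5 (GR-control 1, 3 and 4, GR100 1 and 4); the unstranded counts were used, and 53706 of 53801 gene IDs were in GENCODE M21 (GRCm38), the source of names and coordinates. Counts were tested with edgeR 4.0.16 (R 4.3.3, quasi-likelihood, TMM, sex as a covariate, low-count filter), each cohort alone and all 19 libraries for the difference. The scripts were tested on simulated data. Alternatives used DESeq2 1.42.0, limma 3.58.1 voom, sva 3.50.0, other scalings, covariates and filters, and libraries left out; those on rRNA share and on 4-column tables were chosen after seeing the data. Genes were named by rule: smallest p for the difference, called in a cohort, the same or opposite sign in both, leading list members, and a fixed set. The members and lists were chosen with earlier results of these data known. The values of some genes are not reported here. Nothing in the labels says how mice were pooled or batched, so p-values measure the spread between these libraries.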

Additional observations from a re-analysis of the deposited data

Results flagged for a closer look

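Of 88 groups of values examined for a library far from the rest, 6 held one, against about 5% that chance gives. C4b was highest in PR50 replicate 4, at 134 CPM. Within GR-control, Chchd1 was highest in replicate 2, at 26.9 CPM. Folr1 and Ttr, both choroid plexus genes, were highest in PR50 replicate 1, at 4.61 and 518 CPM. Within PR50, the rRNA share of repeat counts was highest in replicate 6, at 43.3%. Within GR-control, the mitochondrial share of gene reads was lowest in replicate 3, at 4.18%.

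Alox12, an arachidonate lipoxygenase gene, and Gm42858 had groups that did not overlap in either cohort, higher with poly(PR) and lower with poly(GR); both were named after their values were seen. For Alox12 the difference of effects was 1.26 (adjusted p = 0.617, edgeR), and for Gm42858, whose poly(PR) groups nearly touch at 0.464 CPM, it was 1.17 (adjusted p = 0.786). Neither difference passed the adjusted threshold.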

How the results depend on the processing

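No paired analysis was possible because the replicate numbers were given in accession order and pair no mice. For the difference of effects, against 0 genes called, the count was 1 with no filter on low counts, 4 with DESeq2, 4 with 1 surrogate variable, 1 with the mitochondrial share and 1 with a choroid plexus score as a covariate, and 0 to 3 with 1 library left out. For poly(PR), against 11, it was 69 with no filter, 448 with DESeq2, 471 with limma voom, 4 with no sex term, 0 in female libraries, 1 beyond 1.2-fold, 600 with 1 surrogate variable, 1061 with the mitochondrial share, 188 with all 19 libraries in one fit, 0 with the choroid plexus score, the striatal score or the rRNA share, and 0 to 617 with 1 library left out. For poly(GR), against 32, it was 522 with no filter, 155 with DESeq2, 65 with voom, 8 with no sex term, 100 in female libraries, 6 beyond 1.2-fold, 68 with 1 surrogate variable, 1 with all 19 libraries, 93 with 4-column tables, 0 with the mitochondrial share, either score or the rRNA share, and 0 to 111 with 1 library left out. The causes of these shifts were not tested.

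Signs changed for some named genes. With 1 surrogate variable the difference was 0.087 for C9orf72, 0.030 for Cbx1, 0.0040 for Cbx3, 0.057 for Cbx5, 0.012 for Ifih1, 0.023 for Plekhf1 and 0.011 for Sgk1. With the mitochondrial share it was 0.068 for C9orf72, 0.014 for Cbx1, 0.034 for Cbx5 and 0.011 for Plekhf1. With 4-column tables only it was 0.035 for C9orf72, 0.027 for Eif2ak2, 0.34 for Ifih1, 0.0049 for Oasl2, 0.024 for Plekhf1 and -0.23 for Ttr. In female libraries it was 0.054 for C9orf72, -0.051 for Lmnb1 and -0.35 for Ttr. With no sex term it was 0.0053 for C9orf72, 1.42 for Ddx3y and -0.43 for Xist. With voom it was 0.0044 for C9orf72 and 0.071 for Plekhf1. With the rRNA share it was 0.016 for Lmna, -0.65 for Ttr and -0.11 for Xist. Without PR50 replicate 6 and GR-control replicates 1 and 2, the only female GR-control libraries, it was 0.18 for C4b and 0.095 for Lmna. In the same fit it was -1.27 for Ttr and -0.82 for Xist. With the choroid plexus score it was 0.46 for Ddx3y and -0.50 for Ttr, and the poly(GR) value was 0.18 for F5, 0.12 for Kl and 0.18 for Tmem72. With the striatal score the difference was 0.055 for Plekhf1, and the poly(GR) value was 0.14 for Cldn2, 0.23 for F5, 0.094 for Nfkbia and 0.13 for Sgk1. Leaving out 1 library at a time gave -0.099 to 0.026 for C9orf72, -0.48 to 1.75 for Ddx3y, -0.22 to 0.015 for Ifih1, -0.084 to 0.017 for Lmna, -0.18 to 0.00083 for Nfkbia and -0.16 to 0.072 for Plekhf1.

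The median SE of the difference was 0.14 on the log2 scale for genes with a mean log2 CPM of at least 1, against 0.11 for poly(PR) and 0.07 for poly(GR), so small differences were not detectable with these numbers of mice.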
